A study of Mus musculus with 4 samples.

Results

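Rps27rt, Rpl9-ps6, Gm2000, Gm11808 and Gm10076 are single-exon copies of ribosomal protein genes, and they are 5 of the 32285 genes counted in these hearts. They were named by symbol, from earlier results on the same libraries in which such copies stood higher in the mutant, so their levels in mutant and wild-type hearts are given here as a description, with no test. The label under which they were grouped, copies raised in mutants, held for 4 of them in cells gated by cardiomyocyte, endothelial and cushion marker genes and did not hold for Gm10076.

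Single-cell RNA sequencing was performed on hearts of C57BL/6J mouse embryos at stage E10.5. There were 2 wild-type libraries (Wt1 and Wt2) and 2 libraries homozygous for the I383V variant of Cyp51 (Ho1 and Ho2), the demethylase of lanosterol in cholesterol synthesis, and the labels give CRISPR/Cas9 as the treatment of all 4. The variant was introduced into the germline, so that it is not limited to a cell type of the Ho hearts. The sources used here do not say whether a library held 1 heart or a pool, so p-values measure only the spread between these libraries. After filtering there were 8908, 7154, 6980 and 6126 cells in Wt1, Wt2, Ho1 and Ho2, with 97199745, 105323774, 113401314 and 98175913 UMIs (unique molecular identifiers, each standing for 1 captured mRNA molecule). The variant is a point change that a count of UMIs cannot read, and Cyp51 itself had 6990, 6591, 6186 and 6549 UMIs, so the counts did not check the genotype labels.

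Ho1 stood apart from the other libraries. It held 28846 UMIs of Xist, against 5 in Wt1, 4 in Wt2 and 2 in Ho2, and no UMI of the Y-linked genes Ddx3y, Uty, Kdm5d and Eif2s3y, each of which had at least 847 UMIs in every other library. The sex of the embryos and their genotype were therefore not balanced, and log2 fold changes without Ho1 are given for Rps27rt, Rpl9-ps6, Gm2000, Gm11808, the 4 parents and the lists of ribosomal genes and copies. The libraries shared between 14 and 34 cell barcodes in pairs.

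Ribosomal proteins make up the protein part of the small and large ribosomal subunits, and their mRNAs are among the most abundant of any cell. Each is encoded by a gene with introns, here called the parent, and reverse transcription of its mRNA has left many intronless copies elsewhere in the genome, often with a remnant of the poly(A) tail. Most such copies are silent, and a few are transcribed. Because a copy and its parent can be the same base for base, sequencing reads can be hard to assign to either, and counting keeps only reads that fit a single gene.

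Copies were matched to their parents by aligning annotated transcripts (GENCODE M21 on GRCm38, the build of the files). Rps27rt, on chromosome 9 from 114982366 to 114982739 (minus strand), matched Rps27, a small-subunit protein, in 341 of 341 aligned bases. Rpl9-ps6, on chromosome 19 from 32465865 to 32466578 (minus strand), matched Rpl9 in 691 of 692. Gm2000, on chromosome 1 from 156366040 to 156366484 (plus strand), matched Rpl35 in 443 of 445. Gm10076, on chromosome 14 from 105681828 to 105682211 (plus strand), matched Rpl41, a very short ribosomal protein, with 2 mismatches. Gm11808 lies on chromosome 4 from 3973092 to 3973595 (minus strand), and values of a parent are given for the other 4 copies. Rpl9, Rpl35 and Rpl41 all encode large-subunit proteins. The 4 parents Rps27, Rpl9, Rpl35 and Rpl41 lie on chromosomes 3, 5, 2 and 10 and have 4 exons each, except Rpl9 with 8. Gm10076 was annotated as a long noncoding RNA although its bases include the whole Rpl41 coding sequence, and the other 4 copies were annotated as protein coding.

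The coding differences are shown because they are the only coding bases at which a read could tell one of these 4 copies from its parent. Positions are counted from 1 at the first base of the parent's start codon. Rpl9-ps6 carried G266A, which changed 1 amino acid of 192, and Gm2000 carried C117T, which left the protein of 123 amino acids as it is in Rpl35. The 60 bases around each change follow, with the changed base in capitals, at chr19:32466257-32466316 (minus strand) for Rpl9-ps6 and chr1:156366164-156366223 (plus strand) for Gm2000.
Rpl9-ps6: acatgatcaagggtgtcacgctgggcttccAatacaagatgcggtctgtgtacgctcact
Rpl9: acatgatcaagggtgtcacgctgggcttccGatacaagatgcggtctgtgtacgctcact
Gm2000: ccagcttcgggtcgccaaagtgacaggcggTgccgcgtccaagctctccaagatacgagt
Rpl35: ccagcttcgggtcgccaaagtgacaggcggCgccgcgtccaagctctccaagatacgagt
Gm10076 and Rpl41 share all 78 coding bases, shown once, at chr14:105681869-105681946 (plus strand), because the annotation names no protein for Gm10076. The capitals mark the stop codon.
Gm10076 and Rpl41: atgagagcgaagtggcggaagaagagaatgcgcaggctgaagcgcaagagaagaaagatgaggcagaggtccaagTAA

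Outside the coding bases Gm2000 differed from its parent by C9T and Gm10076 by C127T and G234A, counted from 1 at the first base of the copy's transcript. The other place at which copy and parent differ is the end of the transcript. The annotated transcripts of Rps27rt and Rpl9-ps6 ran on past the last base that matched the parent mRNA, by 33 and 19 bases, of which 32 and 19 were A. Those of Gm2000 and Gm10076 ended with the match. The 30 bases across each junction follow, since a library primed on poly(A) reads the mRNA end. The capitals mark the first 15 bases beyond the parent's match. The stretches lie at chr9:114982384-114982413 and chr19:32465869-32465898, both on the minus strand.
Rps27rt: acacgttttggatatATAAAAAAAAAAAAA
Rpl9-ps6: agacttatatattgaAAAAAAAAAAAAAAA
No base in the last 150 of the aligned stretch differed between any of these 4 copies and its parent. How reads were divided between copy and parent was not tested, and each level below is uncertain to that extent.

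Cells were gated by the UMIs of marker genes, in a fixed order. Cells over the limit for Tnnt2 were set apart first, those over the limit for Cdh5 were taken from the rest whatever their Hapln1 and Crabp1, and the Hapln1 and Crabp1 gates were drawn from what remained. The Tnnt2 gate (cardiac troponin T, at least 10 UMIs) took 1405, 2247, 3107 and 2226 cells in Wt1, Wt2, Ho1 and Ho2. The Cdh5 gate (vascular cadherin, at least 3 UMIs) took 775, 1257, 1345 and 775 cells. The Hapln1 gate (a hyaluronan link protein of cushion mesenchyme, at least 3 UMIs) took 928, 1142, 1342 and 819 cells, and the Crabp1 gate (a retinoic acid binding protein of pharyngeal mesenchyme, at least 3 UMIs) took 2161, 452, 42 and 414. Marker levels are given as CPM, the UMIs of a gene scaled to the same total of UMIs in each library and gate. The 8 cardiomyocyte markers summed to between 41232 and 43765 CPM in the Tnnt2 gate, with Myl7 the most abundant, and to at most 786 in any other gate. The 7 endothelial markers, Egfl7 the most abundant, summed to between 1616 and 1875 CPM in the Cdh5 gate and to at most 531 elsewhere. The 6 mesenchymal markers summed to between 1818 and 1968 CPM in the Hapln1 gate, to between 508 and 614 in the Cdh5 gate with Hapln1 the most abundant in both, to between 322.5 and 993 in the Crabp1 gate and to at most 66.8 in the Tnnt2 gate. The 4 epicardial markers, Tcf21 the most abundant, summed to 198, 351, 213 and 420 CPM in the Hapln1 gate and to at most 111 in any other. The 5 markers of the Crabp1 gate summed to 1353 CPM there in Wt1 but only to between 603 and 753 in the other libraries, against 589.8 to 659.7 in the Hapln1 gate, so that the fixed markers set this gate little apart from the Hapln1 gate in the libraries other than Wt1. The 5 epithelial markers, Krt18 the most abundant, summed to 239, 461, 102 and 364 CPM in the Crabp1 gate, to between 81.9 and 204 in the Hapln1 gate and to at most 116 elsewhere. Blood markers were uneven, with 226 CPM (Hba-x the most abundant) in the Tnnt2 gate of Ho1 against at most 6.11 in the other libraries. They summed to 91.8, 486, 789 and 126 CPM in the Cdh5 gate of Wt1, Wt2, Ho1 and Ho2, and to 1155 CPM in the Crabp1 gate of Wt2. No blood, endothelial, mesenchymal or cardiomyocyte marker was at 0 in all libraries of any gate. Their part in the results was not tested. The Crabp1 gate of Ho1 rested on 42 cells, and values from that gate are given apart.

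Rps27rt, the copy of Rps27, had the highest log2 fold change of the 5 in every gate. In the Tnnt2 gate its normalized CPM (scaled by TMM, as are all levels that follow) were 31.2 and 26.5 for Wt1 and Wt2 and 46.5 and 59.9 for Ho1 and Ho2. Neither Ho library overlapped with Wt, and the means of 28.8 ± 3.35 and 53.2 ± 9.52 (SD, n = 2 each) differed by a log2 fold change of 0.89 ± 0.14 (SE). In the Cdh5 gate the levels were 36.2, 32.1, 57.4 and 72.6, and in the Hapln1 gate 34.7, 30.4, 59.2 and 68.9, with log2 fold changes of 0.93 ± 0.13 and 0.98 ± 0.11. The order of the genotypes was the same in these 3 gates, and Ho2 was the highest library in each. Without Ho1, among libraries that all held Y-linked UMIs, the log2 fold change was 1.06, 1.09 and 1.09 in the Tnnt2, Cdh5 and Hapln1 gates.

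Rpl9-ps6, the copy of Rpl9, was at 55.6 and 64.7 CPM in the Wt libraries and 89.7 and 78.7 in the Ho libraries in the Tnnt2 gate. In the Cdh5 gate it was at 75.6, 83.6, 109.9 and 112.9, and in the Hapln1 gate at 69.6, 73.5, 100.8 and 104.4. The groups did not overlap in any of the 3, and the log2 fold changes of 0.48 ± 0.10, 0.48 ± 0.08 and 0.52 ± 0.08 were close to each other. Without Ho1 they were 0.38, 0.50 and 0.54.

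Gm2000, the copy of Rpl35, had 24.7, 24.4, 35.3 and 32.3 CPM in the Tnnt2 gate, with the Wt libraries within 1 CPM of each other. It had 32.6, 30.7, 48.9 and 54.1 CPM in the Cdh5 gate and 33.8, 32.4, 45.4 and 48.5 in the Hapln1 gate. The Ho libraries were again both higher, with log2 fold changes of 0.46 ± 0.09, 0.70 ± 0.10 and 0.50 ± 0.09. Without Ho1 these were 0.40, 0.78 and 0.55.

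Gm11808 had 94.4 and 98.7 CPM in the Wt and 148.4 and 115.8 in the Ho libraries of the Tnnt2 gate. It had 114.5, 124.0, 187.1 and 167.3 CPM in the Cdh5 gate and 105.9, 113.6, 162.0 and 140.7 in the Hapln1 gate. Here Ho1 was the highest library in each, in contrast to Rps27rt. The log2 fold changes of 0.45 ± 0.12, 0.57 ± 0.09 and 0.46 ± 0.09 became 0.26, 0.48 and 0.36 without Ho1, so that in the Tnnt2 gate the difference was over 1.5 times smaller without that library.

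Gm10076, the copy of Rpl41, went against the label. In the Tnnt2 gate it had 973 and 482 CPM in the Wt libraries and 504 and 412 in the Ho libraries, a log2 fold change of -0.67 ± 0.28. Wt1 stood far above the other 3 libraries, among which the genotypes overlapped. The same held in the Cdh5 gate, with 1156, 574, 626 and 499 CPM, and in the Hapln1 gate, with 1178, 589, 604 and 537. Without Wt1 the log2 fold change was -0.08, -0.03 and -0.05 in the Tnnt2, Cdh5 and Hapln1 gates, so the lower mean of the Ho libraries rested on Wt1.

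**Figure D1:**
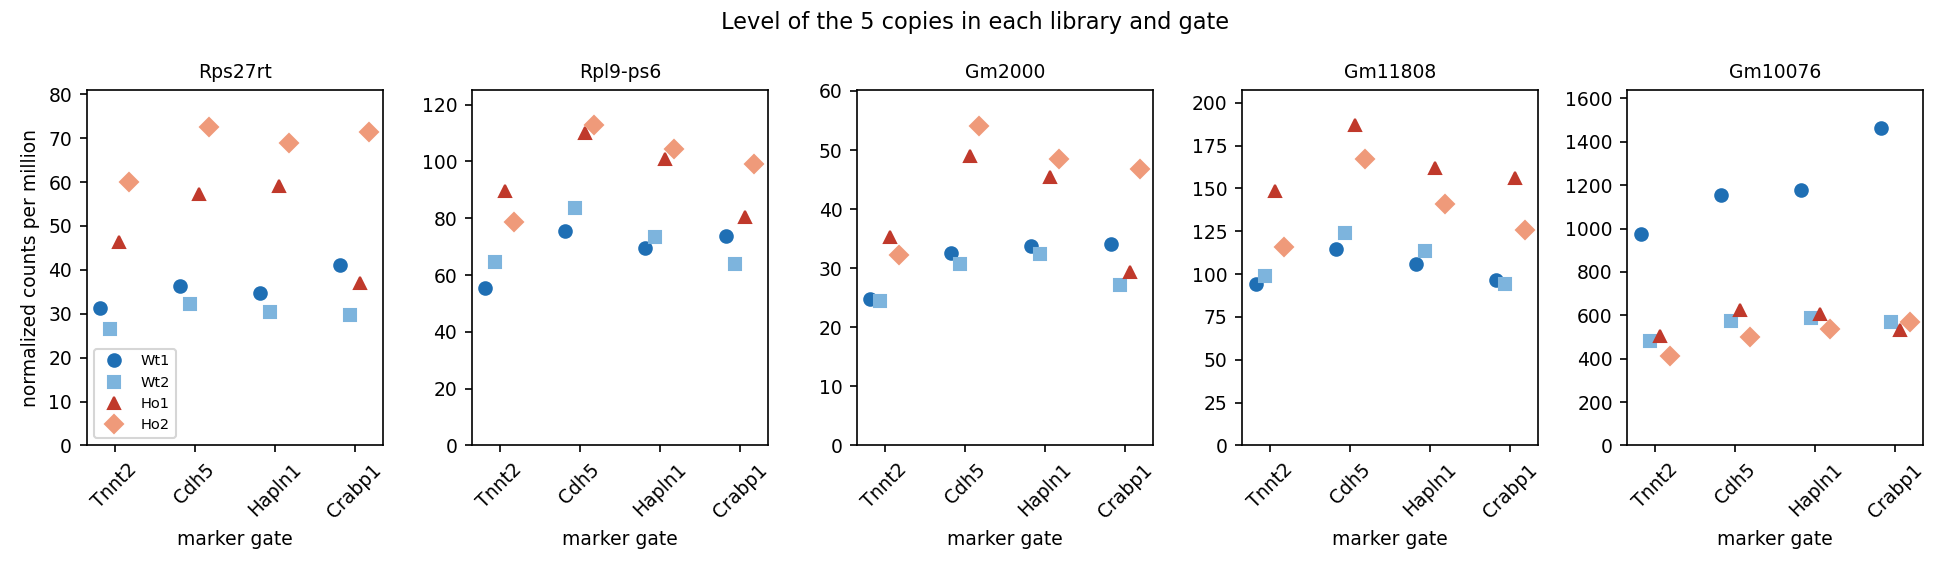
Normalized CPM (y axis, from 0, a separate scale for each gene) of the 5 copies in each marker gate (x axis), with 1 point for each library. In the Tnnt2, Cdh5 and Hapln1 gates both Ho libraries (red) lie above both Wt libraries (blue) for Rps27rt, Rpl9-ps6, Gm2000 and Gm11808, whereas for Gm10076 Wt1 lies apart from the other 3 libraries.

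In the Crabp1 gate, where Ho1 had only 24 UMIs of Rps27rt and 19 of Gm2000, the order held for Rpl9-ps6 (73.6, 64.1, 80.4 and 99.2 CPM) and Gm11808 (96.7, 94.3, 156.2 and 125.9). It did not hold for Rps27rt (41.2, 29.7, 37.1 and 71.4 CPM) or Gm2000 (34.1, 27.1, 29.4 and 46.8), in which Ho1 lay between the Wt libraries. Gm10076 was again highest in Wt1, at 1463 CPM, and between 534 and 571 in the others, and its log2 fold change of -0.88 became -0.07 without Wt1. Without Ho2 the log2 fold change in this gate was 0.04 for Rps27rt and -0.08 for Gm2000, against 0.68 and 0.38 with all libraries.

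Thus 4 of the 5 copies were higher in each Ho than in each Wt library in the Tnnt2, Cdh5 and Hapln1 gates, and 2 of 5 in the Crabp1 gate. Among all genes tested, 18.9%, 17.7%, 16.4% and 12.3% showed that order in the Tnnt2, Cdh5, Hapln1 and Crabp1 gates, and 18.6%, 17.2%, 17.3% and 14.8% the reverse one. In sums over all cells of a library, 20.7% of genes showed the first order and 17% the reverse one. The copies were picked on this contrast, so nothing was read from their count. Ranked by log2 fold change, 104 of the 14698 genes tested in the Tnnt2 gate lay above Rps27rt, 529 above Rpl9-ps6, 575 above Gm2000 and 602 above Gm11808. In edgeR's quasi-likelihood test with Benjamini-Hochberg adjustment, 0% of the genes tested were called at 0.05 in any gate (0 of 14698, 13126, 13202 and 11743). At an unadjusted p under 0.05 there were 907, 628, 627 and 139 genes (6.17%, 4.78%, 4.75% and 1.18%), and DESeq2 called 22, 18, 14 and 0. The numbers at an unadjusted p moved widely in each gate when single libraries were left out, so these background shares are approximate.

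The share of Tnnt2-gate cells in which a copy was seen, with cells thinned to 2000 UMIs each, had the same order of genotypes for 4 copies. For Rps27rt it was 6.40% (exact 95% interval 5.14 to 7.85) and 5.64% (4.71 to 6.69) in Wt1 and Wt2, and 7.82% (6.89 to 8.82) and 11.7% (10.4 to 13.1) in Ho1 and Ho2, so that the intervals of Wt1 and Ho1 overlapped. Unthinned it was 34.9%, 37.2%, 54.5% and 63.9%, with median depths of 14185, 19041, 18517 and 18870 UMIs per cell. Thinned, Rpl9-ps6 was seen in 10.2%, 12.9%, 15.04% and 15.7% of cells, Gm2000 in 4.82%, 4.77%, 7.03% and 6.17%, and Gm11808 in 17.2%, 17.2%, 23.0% and 19.6%. The intervals of a Wt and a Ho library overlapped for these 3 copies too, such as 11.5 to 14.4 in Wt2 and 13.8 to 16.4 in Ho1 for Rpl9-ps6 and 3.73 to 6.11 in Wt1 and 5.20 to 7.25 in Ho2 for Gm2000, and for Gm11808 those of Ho2 overlapped with both Wt libraries. For Gm10076 the thinned share was 86.3% in Wt1 and 59.9%, 63.3% and 55.5% in Wt2, Ho1 and Ho2. Thinning left out 76, 48, 36 and 20 shallower cells in Wt1, Wt2, Ho1 and Ho2. No cell type is known to lack these mRNAs, so a background share could not be given, and intervals cover counting error only.

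The parents were next compared in the same fits, since they were not picked for their change. None of Rps27, Rpl9, Rpl35 and Rpl41 was called between Ho and Wt in any gate by edgeR's test or by DESeq2, and the smallest adjusted p of edgeR was 0.81, for Rps27 in the Tnnt2 gate. At an unadjusted p under 0.05 there were 0 of these 4 parents in each gate. Without Wt1, Rps27 was called higher in Ho in the Cdh5 gate (log2 fold change 0.78 ± 0.15, adjusted p = 0.026 by edgeR), against 0.40 ± 0.19 (adjusted p = 0.95) with all libraries. Without Ho1 the log2 fold changes in the Tnnt2 gate were 0.44 for Rps27, -0.16 for Rpl9, -0.34 for Rpl35 and -0.04 for Rpl41, and none was called. Rpl9 had 3747, 3851, 4072 and 3390 CPM in Wt1, Wt2, Ho1 and Ho2 in the Tnnt2 gate, a log2 fold change of -0.03 ± 0.17. Rpl35 had 1479, 1144, 1424 and 1034 CPM, a log2 fold change of -0.09 ± 0.19. The genotypes overlapped in both. They did not overlap for the copies Rpl9-ps6 and Gm2000, but these were picked on this contrast. Nothing was therefore read from that difference between copy and parent.

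Rps27 had 983 and 628 CPM in the Wt and 983 and 1093 in the Ho libraries of the Tnnt2 gate, a log2 fold change of 0.37 ± 0.20 that was 0.09 without Wt2 and 0.72 without Wt1. Both Ho libraries were above both Wt libraries for Rps27 in the Tnnt2 and Hapln1 gates, as for its copy, but not in the Cdh5 and Crabp1 gates. In the Tnnt2 gate Wt1 and Ho1 were nearly level for Rps27, whereas Rps27rt, picked on this contrast, separated them. Rpl41 had 6007, 5237, 7239 and 5453 CPM, a log2 fold change of 0.17 ± 0.21 with overlapping groups, and Wt1 did not stand apart for it as it did for Gm10076. Rps27l, a relative of Rps27 with 5 exons, had 700.0, 680.3, 841.8 and 685.1 CPM, and the genotypes overlapped.

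To set each copy against its own parent, the UMIs of Rps27rt, Rpl9-ps6, Gm2000 and Gm10076 were taken as a percentage of the UMIs of copy plus parent, which no scaling of the libraries can change. In the Tnnt2 gate Rps27rt made up 3.08% and 4.05% in Wt1 and Wt2, and 4.51% and 5.20% in Ho1 and Ho2. Rpl9-ps6 made up 1.46%, 1.65%, 2.15% and 2.27%, and Gm2000 1.64%, 2.09%, 2.42% and 3.03%. For these 3 copies the order of the libraries was the same, Wt1, Wt2, Ho1, Ho2, in the Tnnt2, Cdh5 and Hapln1 gates. Ho exceeded Wt on average by 1.29, 0.65 and 0.86 percentage points in the Tnnt2 gate. These copies were picked for higher levels in the same Ho libraries, a choice that by itself raises their share there. The order of the genotypes is therefore a description, and nothing was read from it. Single libraries moved these values, since the difference for Rps27rt was 0.81 points without Wt1 and that for Gm2000 was 0.55 without Ho2, and in the Cdh5 gate that for Rps27rt was 1.23 points and 0.65 without Wt1. Without Ho1 the differences in the Tnnt2 gate were 1.63, 0.71 and 1.16 points. For Rps27rt and Gm2000 the gap between Wt1 and Wt2 was larger than that between Wt2 and Ho1, so the genotypes were separated by less than the spread within Wt.

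Gm10076 made up 13.9%, 8.42%, 6.51% and 7.02% of its sum with Rpl41, so that here both Ho libraries were below both Wt libraries, in all 4 gates, and Ho minus Wt was on average -4.42 percentage points in the Tnnt2 gate and -1.66 points without Wt1. Exact 95% intervals were at most 0.48 points wide in the Tnnt2 gate for Rps27rt, 0.17 for Rpl9-ps6, 0.31 for Gm2000 and 0.36 for Gm10076.

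Within a library the share differed little from one gate to the next. Over the 4 gates Gm10076 ran from 13.8% to 13.9% and from 8.37% to 8.68% in Wt1 and Wt2, and from 6.29% to 6.63% and from 6.76% to 7.09% in Ho1 and Ho2. In the same order, Rpl9-ps6 ran from 1.46% to 1.51%, 1.62% to 1.66%, 1.93% to 2.15% and 2.26% to 2.40%. For both genes no 2 libraries of different genotype overlapped in these ranges, which for Rpl9-ps6, picked on this contrast, is a description only. Rps27rt ran from 2.81% to 3.08%, 3.69% to 4.05%, 3.20% to 4.67% and 4.80% to 5.20%, and Gm2000 from 1.43% to 1.64%, 1.85% to 2.09%, 1.90% to 2.42% and 3.03% to 3.33%, the low end of Ho1 being its 42 cells of the Crabp1 gate for both.

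**Figure D2:**
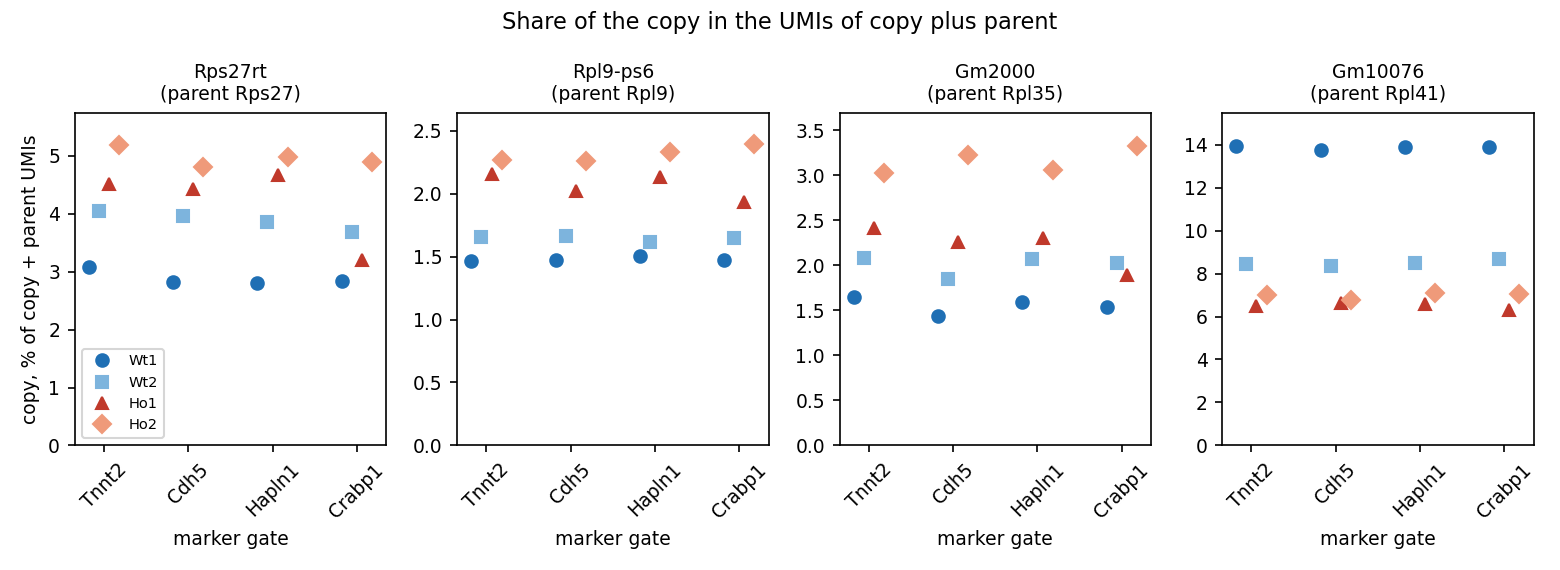
UMIs of the copy as a percentage of the UMIs of copy plus parent (y axis, from 0, a separate scale for each of 4 pairs) in each marker gate (x axis), with 1 point for each library. Each library keeps nearly the same share in every gate, as for Gm10076 with 13.8% to 13.9% in Wt1, and the exceptions for Rps27rt and Gm2000 are the 42 cells of Ho1 in the Crabp1 gate.

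Differences between cell types were tested over all 16 sums of 4 gates in 4 libraries with the library as a block, a contrast that was not used to choose the copies. Relative to the Tnnt2 gate, the Cdh5 gate held more Gm2000 (log2 difference 0.31 ± 0.08, adjusted p = 0.0030 by edgeR), more Gm11808 (0.19 ± 0.05, adjusted p = 0.0042) and more Rpl9-ps6 (0.22 ± 0.07, adjusted p = 0.012). In this contrast 74.5% of the 14361 genes tested were called in either direction, and 3 of the 5 copies is no larger a share. The parents Rpl35 (0.40 ± 0.07), Rpl9 (0.24 ± 0.07) and Rps27 (0.16 ± 0.06) were also called higher there, so Gm2000 and Rpl9-ps6 moved in the direction of their parents. Of the 79 cytosolic ribosomal protein genes, parents included, 38 were called higher and 1 lower, with a median log2 difference of 0.19. The direction was therefore not particular to these pairs. Without Ho2 none of the copies was called and 1 of the 4 parents was, and without the library block none of the copies and 2 of the parents were called. Among all genes, 4706 of 14556 were called higher and 5154 lower without Ho2. Without the library block these numbers were 4862 and 5278 of 14361. With no filter on low counts Gm2000 was the only copy called, and Rpl9 and Rpl35 were the parents called. Of 23490 genes, 5485 were then called higher and 6527 lower. The call of Rps27 was lost with no filter (adjusted p = 0.12 by edgeR), without the library block (0.51), without Wt2 (0.077) and without Ho2 (0.13).

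In the Hapln1 gate, where 71.4% of genes were called against the Tnnt2 gate, Gm2000 (0.20 ± 0.08, adjusted p = 0.040 by edgeR) and Rpl35 (0.23 ± 0.07, adjusted p = 0.0098) were higher, and the call of Gm2000 was lost under each alternative run except the one without Ho1, with adjusted p between 0.059 and 0.39. The call of Rpl35 was lost without the library block (adjusted p = 0.24 by edgeR) and without Ho2 (adjusted p = 0.088). In the Crabp1 gate, where 65.8% were called, Gm11808 was lower (-0.28 ± 0.05, adjusted p = 0.00038 by edgeR), and it was not called without the library block. Rps27rt and Gm10076 passed the test in none of the 3 contrasts, with differences between -0.06 and 0.09 on the log2 scale.

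**Figure D3:**
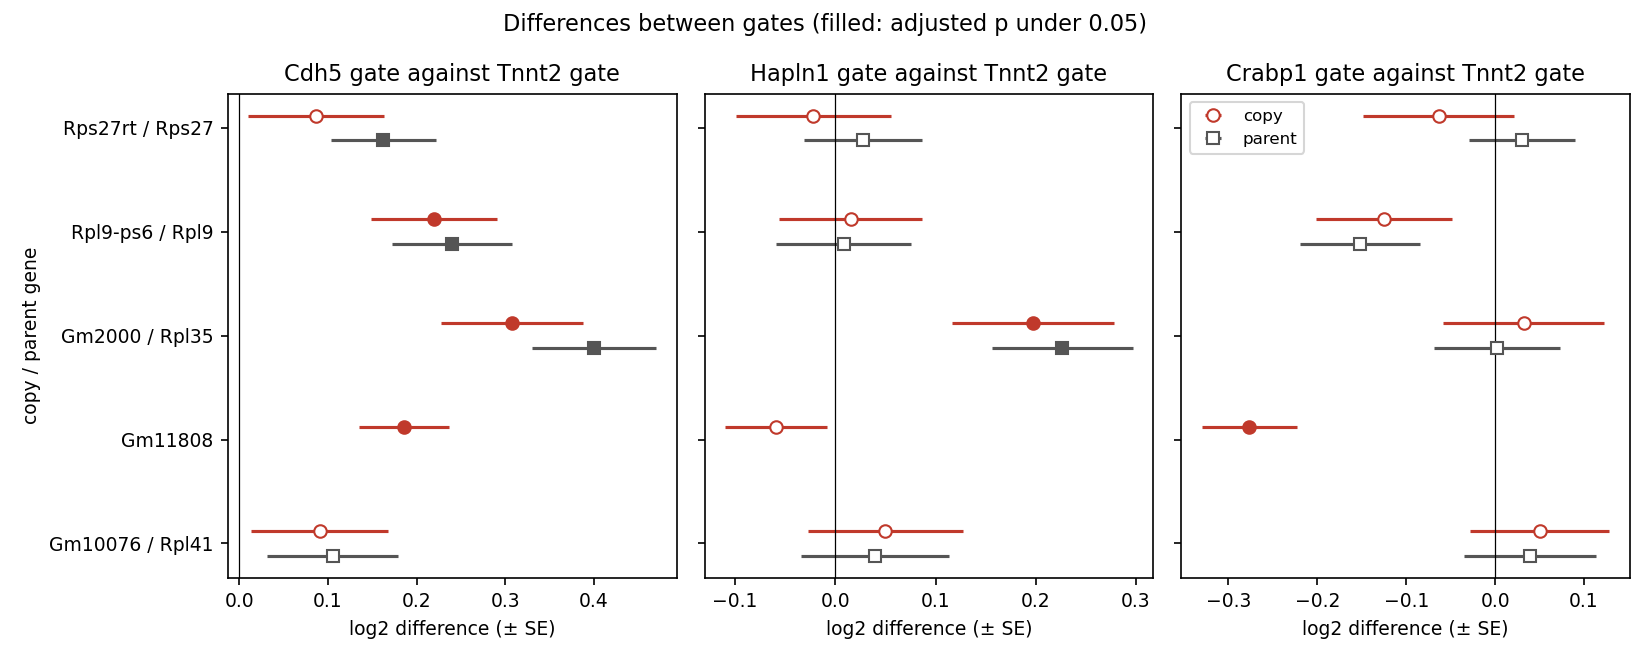
Log2 difference of the Cdh5, Hapln1 and Crabp1 gates from the Tnnt2 gate (x axis, bars are SE) for each copy (circles) and, except for Gm11808, its parent (squares), from 16 sums with the library as a block, and filled symbols mark an adjusted p under 0.05. Copy and parent lie close to each other in each contrast, as in the Cdh5 gate with 0.31 for Gm2000 against 0.40 for Rpl35.

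The rest of the cytosolic ribosomal protein genes give the setting of these copies. Of the 79 genes of the list, parents included, edgeR's test called 0 between Ho and Wt in each of the 4 gates, and 5, 12, 12 and 0 had an unadjusted p under 0.05 in the Tnnt2, Cdh5, Hapln1 and Crabp1 gates, while DESeq2 called 0, 0, 1 and 0. In percent of the list these were 6.33%, 15.2%, 15.2% and 0%, beside the 6.17%, 4.78%, 4.75% and 1.18% of all genes tested. The shares at an unadjusted p moved widely when a single library was left out. They were lowest without Wt2 in the Tnnt2, Cdh5 and Hapln1 gates, so no excess over all genes was read from them. Both Ho libraries were above both Wt libraries for 16, 27, 32 and 1 of the 79 genes (20.3%, 34.2%, 40.5% and 1.27%, beside 18.9%, 17.7%, 16.4% and 12.3% of all genes), and both were below for 6, 4, 8 and 2 (7.59%, 5.06%, 10.1% and 2.53%, beside 18.6%, 17.2%, 17.3% and 14.8%). The median log2 fold change of the list was 0.01, 0.09, 0.07 and -0.07, beside 0.00 in each gate for all genes tested. Its sign rested on single libraries in 2 of the gates. In the Tnnt2 gate the median was -0.09 (24 of 79 genes positive) without Ho1 and 0.15 (67 of 79) without Ho2, and in the Crabp1 gate it was 0.23 without Wt1 and -0.35 without Wt2. In the Cdh5 and Hapln1 gates it stayed above 0 without any one library, at its lowest 0.02 in both, without Wt2, and at its highest 0.17 and 0.13, without Wt1, and it was 0.05 in both without Ho1. The list took 17.0%, 16.2%, 17.7% and 16.5% of all UMIs of the Tnnt2 gate in Wt1, Wt2, Ho1 and Ho2, and 22.6%, 20.9%, 23.2% and 22.2% of those of the Cdh5 gate, with overlapping genotypes in both. The largest log2 fold change of the list in the Tnnt2 gate was that of Rps21, a small-subunit protein chosen here after its values were seen, with 827, 468, 845 and 1478 CPM and a log2 fold change of 0.84 ± 0.30 that did not pass the test. Its Wt1 and Ho1 libraries lay close together, as they did for Rps27.

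Other copies were sought by sequence. By protein, 13 further genes encoded at least 80% of a listed ribosomal protein at 90% identity or more, and edgeR's test and DESeq2 each called 0 of the 7, 9, 9 and 7 that passed the filter on low counts in the Tnnt2, Cdh5, Hapln1 and Crabp1 gates, with 2, 2, 4 and 0 at an unadjusted p under 0.05 (28.6%, 22.2%, 44.4% and 0%, beside 6.17%, 4.78%, 4.75% and 1.18% of all genes tested). The count at an unadjusted p in the Hapln1 gate fell when any single library was left out, and it was 1 with DESeq2. No excess over all genes was read from it. The median log2 fold change of these copies was 0.15, 0.21, 0.13 and 0.12. Single libraries moved it by over 1.5 times in 3 gates: in the Tnnt2 gate it was 0.04 without Ho1, 0.28 without Wt1 and 0.29 without Ho2, in the Hapln1 gate 0.30 without Wt2, and in the Crabp1 gate 0.43 without Wt1 and -0.07 without Wt2. In the Cdh5 and Hapln1 gates it was 0.20 and 0.14 without Ho1. Rpl10l, a copy of Rpl10 used in the testis, had 0 UMIs in all cells of all 4 libraries.

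A further list, chosen after the data were seen, took 9 genes with a transcript that matched a ribosomal coding sequence at 95% identity or more, without overlap with the parent. Of the 6 that passed the filter in the Tnnt2 gate, Wdr89, Rpl10-ps3 and Rpl36a-ps1 had the Ho libraries above the Wt libraries without overlap, and none had them below (50% and 0% of the 6, beside 18.9% and 18.6% of all genes of the gate). The 3 that failed the filter there had at most 7 UMIs in any library of the gate. Wdr89, a gene of 3 exons for a WD repeat protein, holds a copy of Rplp2 at bases 2200 to 2646 of its transcript, 99.3% the same, and 14 of the next 15 bases are A. It had 34.7, 40.0, 64.3 and 62.8 CPM in the Tnnt2 gate, 47.6, 47.6, 79.6 and 87.7 in the Cdh5 gate and 42.9, 43.3, 72.4 and 79.3 in the Hapln1 gate, again with every Ho above every Wt value, and log2 fold changes of 0.76, 0.81 and 0.81 (0.74, 0.88 and 0.88 without Ho1). In the Crabp1 gate the genotypes overlapped, with 51.6, 33.0, 41.8 and 76.1 CPM. Its UMIs were 2.44%, 3.15%, 3.78% and 4.15% of those of Wdr89 plus Rplp2 in the Tnnt2 gate, in the same order of libraries as for Rps27rt, and in the Crabp1 gate these shares overlapped between the genotypes. Rplp2 itself had 1385, 1230, 1639 and 1452 CPM in the Tnnt2 gate, a log2 fold change of 0.24 ± 0.14 that was not called by edgeR, and both Ho libraries exceeded Wt in the Tnnt2, Cdh5 and Hapln1 gates.

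Rpl10-ps3 is the same as Rpl10 in all 740 aligned bases and is followed by 15 A. It had 14.5, 15.2, 22.2 and 17.0 CPM in the Tnnt2 gate, with a log2 fold change of 0.40 that was 0.19 without Ho1, and its share of the sum with Rpl10 was 2.65%, 2.94%, 3.94% and 4.04%. Rpl36a-ps1 had 12.6, 10.54, 15.1 and 16.5 CPM, and its share of the sum with Rpl36a was 1.30%, 1.30%, 1.40% and 1.52%. Rpl36a itself had 953, 798, 1063 and 1070 CPM, a log2 fold change of 0.29 ± 0.13 that was not called, and like Rplp2 it was higher in both Ho libraries in the Tnnt2, Cdh5 and Hapln1 gates, whereas Rpl10 overlapped between the genotypes in each gate. BC004004, a gene of 9 exons whose transcript contains a copy of Rpl21 followed by 14 A in 15 bases, had 32.0, 34.9, 32.8 and 31.6 CPM in the Tnnt2 gate, and its genotypes overlapped there and in the Cdh5 and Hapln1 gates. In the Crabp1 gate it had 22.3, 27.1, 38.7 and 28.4 CPM, both Ho libraries being the higher.

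**Figure D4:**
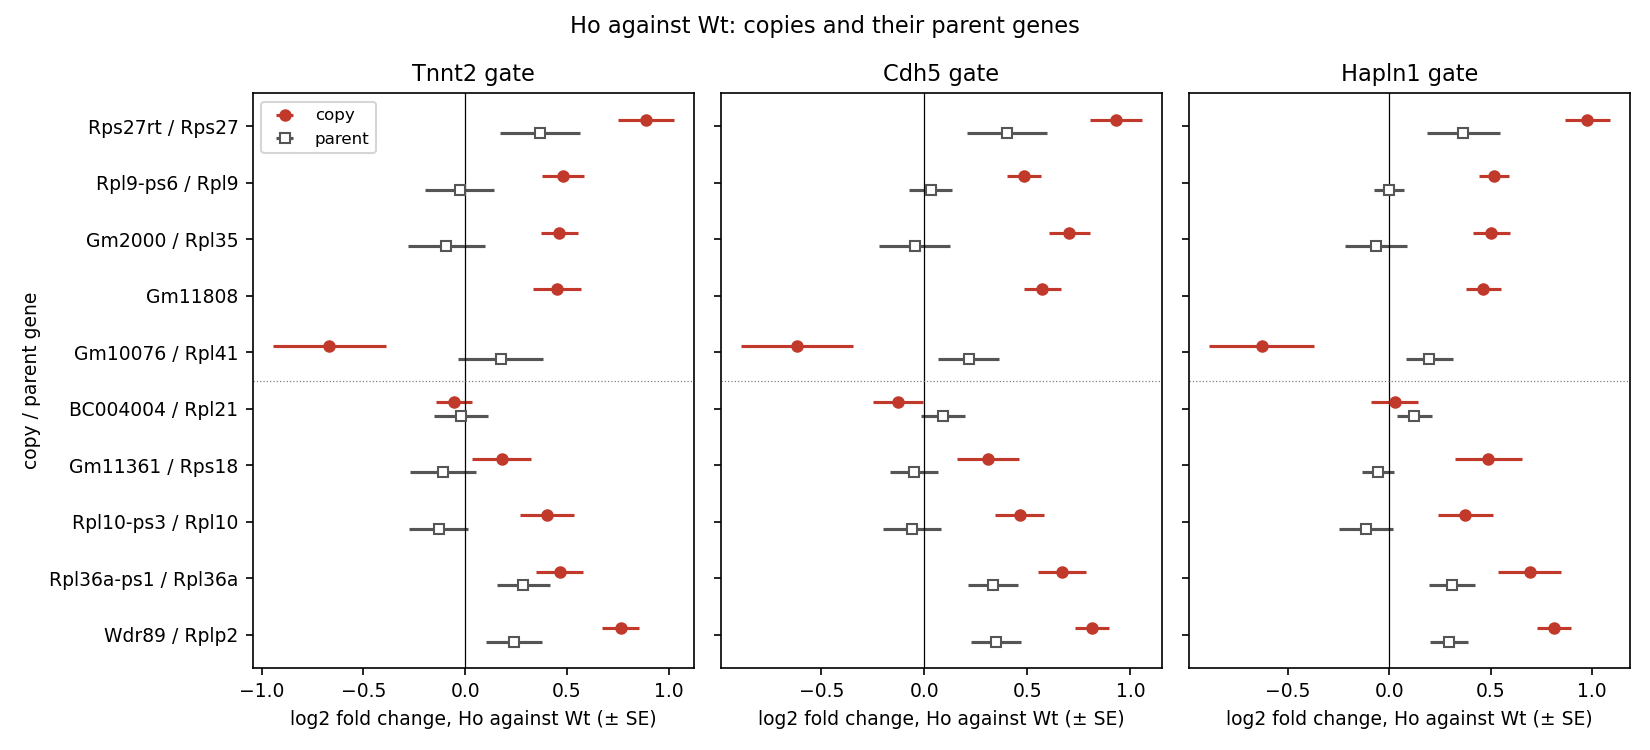
Log2 fold change of Ho against Wt (x axis, bars are SE from edgeR, n = 2 libraries each) in the Tnnt2, Cdh5 and Hapln1 gates for each copy (red circles) and, except for Gm11808, its parent (grey squares), with the 5 copies described here above the dotted line and 5 copies found by sequence below it. Rps27rt at 0.89 in the Tnnt2 gate lies farthest to the right and Gm10076 at -0.67 farthest to the left, while the parents lie between -0.13 and 0.37 in that gate. The copies above the dotted line were picked on this contrast and the parents were not.

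The levels of 4 copies moved together over the 16 sums, with Pearson r between 0.66 and 0.92 on log2(CPM + 1). These copies were picked for higher levels in the same Ho libraries, a choice that by itself gives them a positive r, so nothing was read from these values or from their size beside that of the parents. The highest were Rpl9-ps6 and Gm2000 at 0.92, Rps27rt and Gm2000 at 0.90, and Rpl9-ps6 and Gm11808 at 0.89, whereas Gm10076 had r between -0.49 and -0.29 with the other 4. Among 11272 genes, that most like Rps27rt (r = 0.94), Rpl9-ps6 (r = 0.96) and Gm2000 (r = 0.95) was Wdr89 for each. The next for Rps27rt were Rpl36a-ps1 (0.92) and Gm2000 (0.90). Nmt1, an N-myristoyltransferase, was most like Gm11808 (r = 0.92), followed by Rpl10-ps3 (0.90) and Rpl9-ps6 (0.89), and the genes most like Gm10076 were Gstp1 (0.86), a glutathione transferase, Son (0.85), a splicing cofactor, and Sap18 (0.79). The parents had r of 0.76 for Rps27, 0.43 for Rpl9, 0.22 for Rpl35 and 0.32 for Rpl41 with their copies, which put them at ranks 16, 765, 3392 and 890 of these genes. The 16 sums share 4 libraries, so these values are descriptions of 4 libraries and carry no p.

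Neighbouring genes were examined within 500 kb of each copy. In the Tnnt2 gate 11 neighbours of Rps27rt were tested, of which 2 had both Ho above both Wt libraries and 2 both below. The counts were 2 and 1 of 7 for Rpl9-ps6, 3 and 1 of 9 for Gm2000, 0 and 1 of 7 for Gm11808, and 3 and 0 of 3 for Gm10076. They differed between gates, with 0 and 4 of 11 for Gm2000 in the Hapln1 gate and 0 and 0 of 2 for Gm10076 in each of the Cdh5, Hapln1 and Crabp1 gates. Among all genes of the gate 18.9% lay above and 18.6% below, and edgeR's test called none of these neighbours, as it called no gene of the gate. Rps27rt lies in an intron of Osbpl10, on the opposite strand. Osbpl10 had 82, 101, 91 and 94 UMIs over all cells, against 3538, 3134, 5708 and 6754 for Rps27rt.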

How the data were processed

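Per the labels and methods, the authors aligned 10x 3′ reads with Cell Ranger 6.1.1 to mm10 (GRCm38) and deposited raw UMI counts per gene and cell, without normalization. Cells were kept at up to 20% mitochondrial counts, 500 to 50000 UMIs and 500 to 6000 genes, the limits of the study, and the highest Scrublet scores (0.8% per 1000 cells, scanpy 1.11.5) were removed as doublets in place of the authors' DoubletFinder. Gates were assigned in the order Tnnt2, Cdh5, then Hapln1 and Crabp1, and cells with both Tnnt2 and Cdh5, or, among the remaining cells, both Hapln1 and Crabp1, at or over the limits were left out. Counts were summed per library and gate and fitted with edgeR 4.0.16 (quasi-likelihood, TMM, filterByExpr, Benjamini-Hochberg at 0.05) in R 4.3.3, with genotype as the only term, or with gate and library in the comparison of gates. Alternatives were DESeq2 1.42.0, RLE normalization, other filters, gates and thinning, a replicate block and leaving out each library. The 5 copies and all lists were chosen with earlier results of these data known. Named genes were the copies, their parents and those parents' other copies, listed genes that passed the test (none did) and the 3 genes most like each copy, and Rps21, Rpl10l, BC004004 and Osbpl10 were named outside this rule, after their values were seen, as were the genes of the list of copies by sequence. GENCODE M21 held 99.6% of the gene identifiers, and BLAST 2.17.0 aligned copies to the 79 listed genes. The parent of Gm11808 and the host gene of another copy are not reported here. The edgeR code was run on simulated counts as a check of the code only. Depth of the cells used was 97199745 to 113401314 UMIs per library, and intervals cover counting error only.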

Additional observations from a re-analysis of the deposited data

How the results depend on the processing

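The 2 libraries a genotype limit every comparison: an exact permutation test cannot go below a p of 0.33, and 1 library decided several values. Depth limits the Crabp1 gate most, where the widest interval of a share of copy plus parent was 2.67 percentage points for Rps27rt and 1.80 for Gm2000. The causes of the changes below were not tested.

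Genes called between Ho and Wt (0 in each gate) became 221, 191, 184 and 123 in the Tnnt2, Cdh5, Hapln1 and Crabp1 gates with no filter on low counts. In these runs 21419 genes were tested in the Tnnt2 gate and 20265 in the Cdh5 gate. DESeq2 called 22 of 14698, 18 of 13126 and 14 of 13202 genes in the first 3 gates. At a limit of at least 10 UMIs in every library, 1 of 12135 genes was called in the Cdh5 gate. With no filter 1 of the 4 parents was called in each of the Cdh5 and Hapln1 gates. So were 2, 12 and 13 of the 79 genes of the ribosomal protein list in the Tnnt2, Cdh5 and Hapln1 gates, and 2, 2 and 1 other copies. In the Tnnt2 and Cdh5 gates these were 2 of 12 and 2 of 11 other copies tested. DESeq2 called 1 of the 79 ribosomal genes in the Hapln1 gate. The replicate number as a block (replicate block) gave 50 of 13202 genes in the Hapln1 gate and 0 in the others. In the Hapln1 gate it called 2 of the 79 ribosomal genes and 1 other copy. The numbers were not taken to pair the samples. The correlation of same-numbered libraries was -0.07, -0.20, 0.14 and -0.27 in the 4 gates and -0.51 in sums over all cells. With 2 libraries a genotype, pairing them the other way gives the same size with the opposite sign. These values therefore cannot show whether the samples were paired. The crossed replicate block, added after the data were seen, gave 1 of 14698, 15 of 13126 and 3 of 13202 genes in the Tnnt2, Cdh5 and Hapln1 gates. It called 1 of the 79 ribosomal genes in each of the Cdh5 and Hapln1 gates. Leaving out each library gave 4 to 50, 5 to 394, 0 to 108 and 0 to 5 genes, 0 to 1 parents, 0 to 5 of the ribosomal list and 0 to 2 other copies in the Cdh5 gate, and 0 to 1 other copies in the Hapln1 gate.

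Against the Tnnt2 gate, no library block gave 0 copies in each gate and 0 parents in the Hapln1 gate. Of 14361 genes, 4862, 4898 and 4265 were then called higher in the Cdh5, Hapln1 and Crabp1 gates, and 5278, 4719 and 4849 lower. With no filter 1 copy was called in the Cdh5 gate, 0 in the Hapln1 gate, and 1 parent in the Crabp1 gate. Of 23490 genes, 5485, 5331 and 4391 were then called higher in these gates, and 6527, 5805 and 5579 lower. DESeq2, RLE normalization and gates by UMIs per 10000 gave 0 copies in the Hapln1 gate. Among all genes of that gate they called 4929, 4997 and 5265 higher, and 5170, 5242 and 5208 lower. Leaving out each library gave 0 to 3, 0 to 1 and 1 to 2 copies and 1 to 3, 0 to 1 and 0 to 1 parents. Of the 14279 to 14556 genes then tested, 9852 to 10540, 9288 to 10063 and 8398 to 9285 were called in either direction. The difference in cells with a UMI, Ho minus Wt in the Tnnt2 gate, was 3.74, 3.85, 1.80 and 4.11 percentage points for Rps27rt, Rpl9-ps6, Gm2000 and Gm11808, and became 10.3, 7.24, 3.42 and 10.54 with cells thinned to 5000 UMIs and 23.2, 15.98, 12.5 and 13.7 with no thinning. For Gm10076 it was -13.7 thinned and 0.465 with no thinning, where nearly all cells had a UMI.

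Values near 0 changed sign. Rpl9 between Ho and Wt became -0.011 in all cells against the Cdh5 gate's 0.030, and in the Hapln1 gate, where it was just below 0, it became 0.0023 with RLE, 0.0023 with DESeq2, 0.0016 with at least 10 UMIs in every library, 0.0058 with no filter, 0.018 with gates by UMIs per 10000 and 0.015 with stricter gate limits. In the Hapln1 gate minus the Tnnt2 gate, DESeq2, RLE and no filter gave -0.015, -0.015 and -0.024 for Rpl9-ps6, -0.0023, -0.0023 and -0.011 for Rps27, and -0.022, -0.022 and -0.031 for Rpl9. In the Crabp1 gate minus the Tnnt2 gate, no filter gave -0.022 for Gm2000, -0.0061 for Gm10076, -0.027 for Rps27, -0.055 for Rpl35 and -0.017 for Rpl41, no library block gave -0.042 for Gm2000, and gates by UMIs per 10000 gave -0.014 for Rpl35. Leaving out each library, Ho against Wt ranged from -0.17 to 0.67 for Rps27 in the Crabp1 gate, from -0.16 to 0.10, -0.036 to 0.090, -0.043 to 0.045 and -0.29 to 0.065 for Rpl9 and from -0.34 to 0.12, -0.26 to 0.20, -0.27 to 0.17 and -0.60 to 0.11 for Rpl35 in the 4 gates, from -0.044 to 0.37 and -0.23 to 0.35 for Rpl41 in the Tnnt2 and Crabp1 gates, and from -0.082 to 0.60 for Gm2000 in the Crabp1 gate. Against the Tnnt2 gate it ranged from -0.031 to 0.053 and -0.028 to 0.036 for Rpl9-ps6 and Rpl9 in the Hapln1 gate, and from -0.049 to 0.091, -0.040 to 0.13, -0.039 to 0.082, -0.091 to 0.076 and -0.054 to 0.11 for Gm2000, Gm10076, Rps27, Rpl35 and Rpl41 in the Crabp1 gate.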
